A study of Mus musculus with 4 samples.

Results

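The naive and circulation genes were 7 listed genes, Tcf7, Lef1, Bach2, Ccr7, S1pr1, Klf2 and Satb1, of 21887 protein-coding genes counted. They were taken by name and not by a measured value, though with earlier results of these data known. For each gene, open chromatin was read as the number of ATAC fragments with an end in the gene span or the 5 kb on either side, per 1000000 fragments of a cell type label (FPM), in every label of each library. T cells had been sorted from AKP tumors, which grow in the cecum wall from injected mouse cancer organoids, and from adjacent tumor-free cecum, 4 weeks after transplantation, and nuclear RNA and ATAC were read from the same nuclei. There was 1 ATAC library per tissue, and the mouse strain, genotype and age of the animals behind these libraries, and whether animals were pooled, are not given in the sources used here. Without a second library of either tissue nothing was tested, and tissue and library cannot be told apart. Intervals in parentheses are exact 95% intervals for counting error and hold no variation between animals. Where a label has a pair of values, the cecum comes first and the tumor second.

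Naive T cells circulate between blood and lymph nodes, and the genes studied here belong to that state. Tcf7 and Lef1 encode the related transcription factors TCF-1 and LEF-1, and Klf2 encodes the transcription factor that drives S1pr1. Bach2 encodes a regulator known to restrain effector differentiation, and Satb1 one known to organize chromatin. Ccr7 encodes the chemokine receptor for lymph node entry and S1pr1 the receptor for lymph node exit. Regulatory T (Treg) cells, innate-like T cells and gamma-delta T (gdT) cells are known as populations that can reside in the gut without recirculating.

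The cecum library held 66466111 fragments and the tumor library 96747563. Cells with a label numbered 7155 and 8466, with medians of 4374 and 5846 fragments, in 17 labels, and 84 labelled barcodes were present in both libraries. The labels came from clusters of the RNA of the same nuclei, so that an open Ccr7 locus in the labels named for CCR7 is not independent of the name. The same limit holds for S1pr1, since the study describes a CD4 cluster by high S1pr1 RNA. CCR7+ CD4 held 125 and 164 cells, and CCR7+ CD8 held 149 and 137. These were the references, CCR7+ CD4 for CD4 and Treg labels and CCR7+ CD8 for CD8, innate-like and gdT labels. The study describes its Ccr7-high CD4 and CD8 clusters as memory cells, with SOX/TCF motifs enriched in their ATAC peaks. The references are therefore not taken as naive cells here. PD1+ CD4 had 14 cecum cells and is left out of every cecum count over labels.

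The labels were set against marker loci that are not among the 7. Cd8b1, which encodes the CD8 beta chain, separated CCR7+ CD8 (135.4 and 100.2 FPM) from CCR7+ CD4 (36.9 and 24.7 FPM). Il7r, the interleukin-7 receptor of resting T cells, did not set the CCR7+ labels apart, with 64.6 and 61.4 FPM in the cecum against up to 98.1 FPM in the others. Summed over 6 T cell genes, the CCR7+ labels had 1035.9 to 1121.7 FPM, above the 711.9 to 985.3 FPM of the others. Sums over markers of other cell types lay within or near the range of the other labels. They were 145.9 to 190.3 FPM for 6 B cell genes (others 137.8 to 430.9), 137 to 165.3 for 6 myeloid genes (87.38 to 166.8), 88.86 to 136.2 for 10 epithelial genes (89.57 to 220.5) and 208.3 to 219.7 for 6 endothelial and stromal genes (109.4 to 258.7). The part of such cells in the results was not tested.

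CCR7+ cells of the cecum were deep. Their medians were 8588 and 7061 fragments, and 44 of 125 CCR7+ CD4 and 37 of 149 CCR7+ CD8 cells lay above 3 times the library median, against 1 and 9 tumor cells. Without such cells, 15 of 203 log2 ratios to the CCR7+ label and 5 of 112 ratios of tumor to cecum moved beyond their counting interval, and both values are given below for those the text describes. PD1+ CD4 of the tumor had a median of 9642.5 fragments and the lowest share of fragments near gene ends, 45.25%, and the part of these in the low values of that label was not tested.

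The start regions of Lef1, Satb1 and Klf2 are shown because some groups of labels differ there from the CCR7+ labels, and were chosen after their values were seen. At Lef1 start 3 only the innate-like and gdT labels of the tumor differed beyond counting error, with a log2 ratio of -0.93 (-1.67 to -0.11). Sequences run from 250 bases before to 50 bases after a start, 5′ to 3′, and come from RefSeq, GRCm38.p6. Listed promoters were found for Tcf7, Lef1, Bach2, Klf2 and Satb1, 5 of the 7 genes. Capitals mark matches on either strand to CTTTGA (TCF/LEF), GTAAACA (FOXO), CCACCC (KLF), TGANTCA (AP-1 and BACH) and CGGAAGT (ETS).
Lef1 start 1, chr3:131110047-131110346, plus strand: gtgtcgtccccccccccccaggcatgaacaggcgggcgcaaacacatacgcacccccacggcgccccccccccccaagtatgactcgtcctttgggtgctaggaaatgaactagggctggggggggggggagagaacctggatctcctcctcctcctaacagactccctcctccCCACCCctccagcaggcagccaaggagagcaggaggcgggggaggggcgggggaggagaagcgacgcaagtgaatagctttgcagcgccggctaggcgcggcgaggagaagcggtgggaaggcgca
Lef1 start 3, chr3:131112541-131112840, plus strand: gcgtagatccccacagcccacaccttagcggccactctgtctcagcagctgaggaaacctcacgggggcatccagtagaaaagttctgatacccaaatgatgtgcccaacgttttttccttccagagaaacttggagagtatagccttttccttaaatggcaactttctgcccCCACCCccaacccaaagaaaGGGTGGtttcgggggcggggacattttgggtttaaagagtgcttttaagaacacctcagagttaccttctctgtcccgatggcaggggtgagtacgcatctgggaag
Satb1 start 2, chr17:51832598-51832897, minus strand: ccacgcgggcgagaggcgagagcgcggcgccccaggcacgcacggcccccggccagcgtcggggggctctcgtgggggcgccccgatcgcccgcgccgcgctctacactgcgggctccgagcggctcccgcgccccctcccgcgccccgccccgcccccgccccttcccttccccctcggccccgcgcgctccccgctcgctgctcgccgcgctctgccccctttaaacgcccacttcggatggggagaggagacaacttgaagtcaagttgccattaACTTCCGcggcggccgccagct
Satb1 start 3, chr17:51826539-51826838, minus strand: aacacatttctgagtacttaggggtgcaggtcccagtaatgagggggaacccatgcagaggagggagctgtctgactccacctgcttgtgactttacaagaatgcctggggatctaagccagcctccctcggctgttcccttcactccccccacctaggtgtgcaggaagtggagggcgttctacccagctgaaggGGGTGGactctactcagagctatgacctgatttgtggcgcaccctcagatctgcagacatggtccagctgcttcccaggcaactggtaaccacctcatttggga
Klf2 start 1, chr8:72318812-72319111, plus strand: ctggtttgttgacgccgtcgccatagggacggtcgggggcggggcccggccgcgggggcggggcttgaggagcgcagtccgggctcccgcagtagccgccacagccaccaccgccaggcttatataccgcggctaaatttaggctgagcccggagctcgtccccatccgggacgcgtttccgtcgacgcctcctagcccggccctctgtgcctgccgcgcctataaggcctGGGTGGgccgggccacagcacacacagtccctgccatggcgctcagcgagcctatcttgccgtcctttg
The KLF letters CCACCC, present in 31.5% of all 32851 promoters, occur in 4 of these 5 sequences. The ETS letters CGGAAGT, in 6.42% of all promoters, occur in Satb1 start 2. CTTTGA (16% of promoters), GTAAACA (3.65%) and TGANTCA (7.81%) have no match in the 5. Among the listed starts not printed, CTTTGA matched in Lef1 start 4 and Bach2 start 1, and GTAAACA and CGGAAGT matched in Tcf7 start 2. A match describes letters and does not show a bound site.

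For all 7 genes the highest label was a CCR7+ label in both libraries. Another label passed the lower of the 2 CCR7+ labels for Tcf7 in the tumor, where Innate-like T#1 had 229.8 against 229.7 FPM in CCR7+ CD8, and for S1pr1 in the tumor, where newly activated CD4 had 78.1 against 72.1 FPM. Of 203 gene-label pairs with at least 50 cells, 0 were at least 1.5-fold above the reference (7.89% of all pairs were). A gene is called lower below when it was at least 1.5-fold under the reference, which between 2.96% and 12.5% of all genes were in single labels. Over these windows, Satb1 and Ccr7 kept the smallest share of the CCR7+ level and Tcf7 the largest. The median other label held 24.2% and 32.2% of Satb1, 28.1% and 37.3% of Ccr7, and 39.6% and 38.9% of Lef1. For S1pr1 it held 44.1% and 55.1%, for Klf2 57.3% and 60.2%, for Bach2 57.6% and 61.3%, and for Tcf7 68.1% and 72.7%. The windows run from 12.6 to 357.7 kb, and the order of genes depended on the window. Within 1 kb of starts or gene ends, Innate-like T#1, the label with most cells, had S1pr1 log2 ratios of -1.55 and -1.59. Its ratios there were -0.73 and -0.39 for Satb1, -0.30 and -0.27 for Tcf7, and -0.20 and -0.16 for Bach2. Newly activated CD4 of the cecum went the other way there, with -0.64 for S1pr1 and -1.325 for Satb1.

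**Figure D1:**
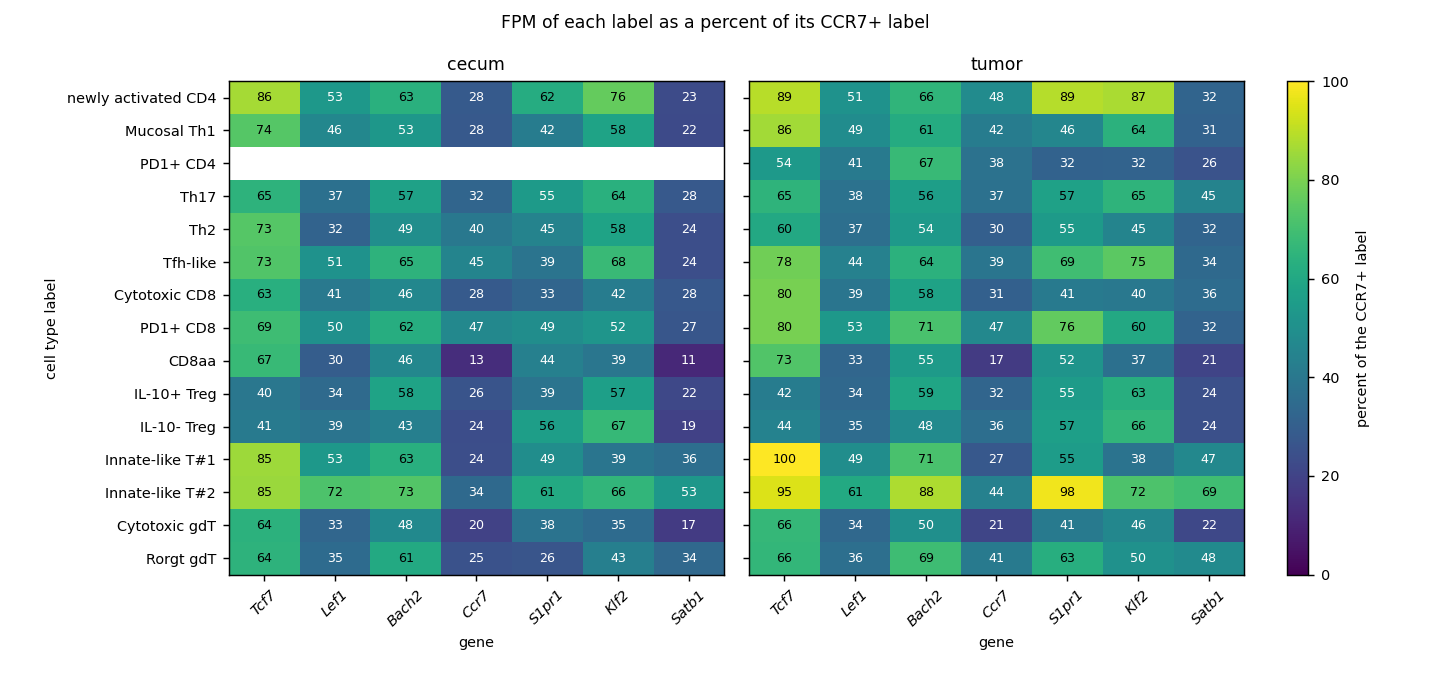
Each cell gives the FPM of a label (rows) as a percent of the FPM of its CCR7+ reference label, for the 7 genes (columns) in the cecum and tumor libraries; the blank row had 14 cells. Satb1 and Ccr7 are dark in nearly every label, CD8aa holds 11% and 13% of them in the cecum, and Tcf7 is lowest in the 2 Treg labels.

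Over the whole window, the loci of TCF-1 and LEF-1 differed in which labels kept them. Tcf7 lies at chr11:52246527-52283383, and its window also holds part of Skp1, whose fragments cannot be separated from it. In the cecum, Tcf7 was at 246.5 FPM in CCR7+ CD4 and 258.2 FPM in CCR7+ CD8, and the tumor levels were 241.1 and 229.7 FPM. Innate-like T#1 kept 220.2 and 229.8 FPM, log2 ratios to CCR7+ CD8 of -0.23 (-0.40 to -0.06) and 0.00047 (-0.20 to 0.21). Newly activated CD4 kept 213.2 and 214.9 FPM, and both intervals of its ratio to CCR7+ CD4 included 0. Without cells above 3 medians, its cecum ratio moved from -0.21 to -0.61. The Treg labels were lowest of all, IL-10+ Treg with 97.9 and 101.5 FPM and IL-10- Treg with 101.3 and 107.0 FPM. Their log2 ratios were -1.33 and -1.25 for IL-10+ Treg, and -1.28 and -1.17 for IL-10- Treg. No other label with at least 50 cells was below 130.2 FPM, the level of PD1+ CD4 in the tumor. Tcf7 was lower in 6 of 14 cecum and 7 of 15 tumor labels. Within 1 kb of its starts and 5′ end alone, where CCR7+ CD4 of the tumor had 15 fragments and CCR7+ CD8 had 40, 5 CD4 labels of the tumor turned above CCR7+ CD4. The log2 ratios there were 1.05 (0.20 to 1.98) in Mucosal Th1, 0.72 in Tfh-like, 0.67 in newly activated CD4 and 0.41 in both Th17 and Th2, with intervals that included 0 in all but Mucosal Th1. In that stretch the tumor Treg ratios were -0.38 (-1.26 to 0.57) for IL-10+ and -0.18 (-0.97 to 0.70) for IL-10- Treg. The cecum Treg ratios there were -1.26 and -1.08. The CD8 and gdT labels were below CCR7+ CD8 in that stretch, with intervals below 0 in both tissues. Their ratios ran from -1.03 in PD1+ CD8 of both tissues to -0.63 in Rorgt gdT of the cecum. The intervals of the innate-like labels included 0.

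Lef1, at chr3:131110297-131224357, was lower also in labels that kept Tcf7. Its level was 539.9 to 558.2 FPM in the CCR7+ labels of the cecum library and 524.7 to 553.5 FPM in those of the tumor library. The highest other label was Innate-like T#2, with 402.5 and 319.7 FPM, and the lowest CD8aa, the CD8 alpha-alpha T cells, with 165.2 and 172.2 FPM. Innate-like T#1, level with CCR7+ CD8 for Tcf7 in the tumor, held 49.1% of its Lef1 there. For Lef1, 13 of 14 cecum and 15 of 15 tumor labels were lower. Within 1 kb of starts alone, PD1+ CD8 had Lef1 ratios of -0.33 (-0.64 to -0.006) and -0.02 (-0.37 to 0.35). These were nearer to CCR7+ CD8 than its Tcf7 ratios there, -1.03 and -1.03. Cytotoxic CD8 was alike, with -0.59 and -0.49 for Lef1 and -0.92 and -0.77 for Tcf7. CD8aa of the cecum went the other way, with -0.89 for Lef1 and -0.67 for Tcf7. The contrast of the 2 genes thus depended on the window.

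Bach2 and Satb1 differed in how much of the CCR7+ level was kept. Bach2, at chr4:32238413-32586109, was at 953.2 and 969.2 FPM in CCR7+ CD4 and CCR7+ CD8 of the cecum, and its tumor levels were 942.6 and 836.6 FPM. Other labels ran from 412.9 to 707.9 FPM (cecum) and from 417.0 to 733.6 FPM (tumor), with Innate-like T#2 highest in both. It was lower in 13 of 14 and 10 of 15 labels. Satb1, at chr17:51736187-51833290, was at 544.9 FPM in CCR7+ CD4 and 456.6 FPM in CCR7+ CD8 of the cecum, against 486.4 and 350.2 FPM for the tumor. CD8aa had 52.4 and 72.0 FPM, log2 ratios of -3.12 (-3.43 to -2.83) and -2.28 (-2.53 to -2.04). Innate-like T#2 was again highest of the others, with 241.3 and 242.8 FPM, and Satb1 was lower in 14 of 14 and 14 of 15 labels. From highest to lowest label the spread was 10.4-fold (cecum) and 6.76-fold (tumor) for Satb1, and 2.35-fold and 2.26-fold for Bach2.

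The receptor for lymph node entry was lower in every label. Ccr7, at chr11:99144199-99155077, was at 223.0 FPM in CCR7+ CD4 and 203.9 FPM in CCR7+ CD8 of the cecum, and at 211.0 and 180.2 FPM for the tumor. No other cecum label exceeded the 100.8 FPM of Tfh-like cells, and no other tumor label the 102.1 FPM of newly activated CD4. CD8aa was lowest with 26.5 and 31.2 FPM. Ccr7 was lower in 14 of 14 cecum and 15 of 15 tumor labels.

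The exit receptor was lower in every cecum label and near the CCR7+ level in some tumor labels. S1pr1, at chr3:115710433-115715055, had 94.7 and 94.5 FPM in CCR7+ CD4 and CCR7+ CD8 of the cecum, with tumor levels of 87.7 and 72.1 FPM. Newly activated CD4 had 78.1 FPM in the tumor (log2 ratio -0.17, -0.57 to 0.25) and 58.6 FPM in the cecum, from 25 fragments, levels that may not be independent of how RNA set the label. Innate-like T#2 had 70.6 FPM in the tumor, 98.0% of CCR7+ CD8 (73.8% to 131.7%). That nearness depended on the reference, since CCR7+ CD4 of the tumor had 87.7 FPM, and on the window. The log2 ratio of Innate-like T#2 was -0.86 (-1.45 to -0.25) within 1 kb of the gene ends, and 0.58 in the gene span without flanks. PD1+ CD4 was the lowest tumor label with 27.7 FPM and Rorgt gdT the lowest cecum label with 25.0 FPM. S1pr1 was lower in 14 of 14 and 11 of 15 labels.

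Klf2, at chr8:72319062-72321654, was kept best by newly activated CD4. In the cecum its level was 184.4 FPM in CCR7+ CD4 and 207.1 FPM in CCR7+ CD8, and the tumor had 167.1 and 179.0 FPM. Newly activated CD4 kept 140.6 and 146.1 FPM. PD1+ CD4 of the tumor held 53.1 FPM, a log2 ratio of -1.66 (-1.96 to -1.34), the same as its ratio for S1pr1, -1.66. Innate-like T#1 had 80.8 and 67.9 FPM, so that the label that kept Tcf7 held 39.0% and 37.9% of Klf2. Klf2 was lower in 11 of 14 and 12 of 15 labels.

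**Figure D2:**
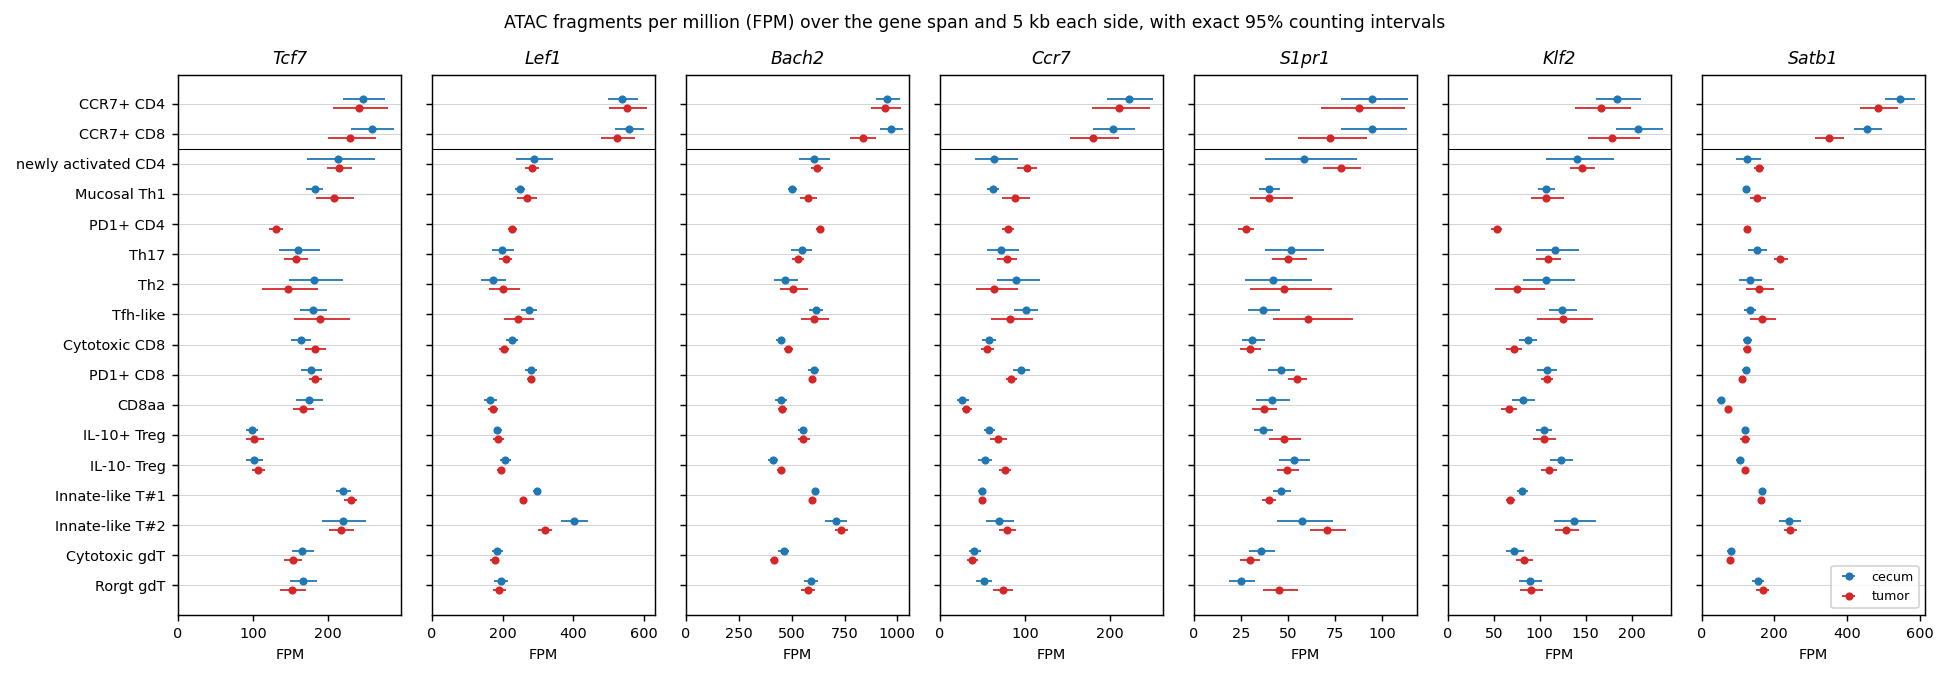
FPM of each label (rows) for the 7 genes (panels) in the cecum (blue) and tumor (red) libraries, points with exact 95% counting intervals; labels with under 50 cells are not drawn. The CCR7+ labels above the line sit to the right of nearly all others, the Treg labels sit lowest for Tcf7, and tumor and cecum points of a label mostly overlap.

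Of 15 neighbouring pairs in the order of cecum levels, between 0 (Klf2) and 5 (Satb1) differed beyond counting error, and of 16 tumor pairs between 0 (S1pr1) and 5 (Satb1). The order of labels in the middle of each range is therefore not resolved.

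CD4 effector labels had 29 of 35 gene-label pairs lower in the cecum, where 9.4% of all gene-label pairs were, and 34 of 42 in the tumor, where 7.89% were. By label, newly activated CD4 had 5 of 7 genes lower (9.79% of all genes) and then 4 (4.26%). Mucosal Th1 had 6 (6.92%) and 6 (7.16%), Th17 had 7 (12.1%) and 7 (7.9%), Th2 had 6 (12.5%) and 7 (11.4%), and Tfh-like had 5 (6.48%) and 4 (6.9%). PD1+ CD4, in the tumor, had 6 (10.3%), with a median log2 ratio of -0.12 over all genes tested. The members' share was above the share of all genes in each label, an excess that is not independent of how RNA set the labels. Newly activated CD4 and Mucosal Th1 differed most at S1pr1 in the tumor, by a log2 ratio of 0.96 (0.52 to 1.42), and by 0.56 (-0.10 to 1.16) in the cecum. This pair, and the other direct pairs of labels below, were chosen after the values were seen.

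CD8 labels had 19 of 21 pairs lower in the cecum (7.64% of all pairs) and 16 of 21 in the tumor (4.11%). Cytotoxic CD8 had 7 (7.19%) and 6 (4.18%) genes lower, PD1+ CD8 had 6 (5.85%) and 4 (2.96%), and CD8aa had 6 (9.92%) and 6 (5.21%). Set directly against PD1+ CD8, CD8aa had 3 of the 7 genes at least 1.5-fold lower (9.2% of all genes) and then 4 (9.57%). At Ccr7 the log2 ratios of CD8aa to PD1+ CD8 were -1.85 (-2.28 to -1.44) and -1.43 (-1.73 to -1.14), and at Satb1 -1.22 and -0.64. The others at least 1.5-fold lower were Lef1 (-0.76 and -0.70) and, in the tumor, Klf2 (-0.70). CD8aa kept 67.4% and 72.7% of Tcf7 over the whole window all the same.

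Treg labels had 13 of 14 pairs lower in the cecum (8.71%) and 14 of 14 in the tumor (6.99%). IL-10+ Treg had 7 (8.92%) and 7 (7.44%) genes lower, and IL-10- Treg had 6 (8.51%) and 7 (6.55%). Both Treg labels were also pooled and set against the pooled CD4 effector labels, each label weighing by its fragments and PD1+ CD4 included (6143256 of the tumor fragments). Treg cells had less Tcf7, with log2 ratios of -0.87 (-0.99 to -0.75) and -0.63 (-0.75 to -0.52). Other genes were below the CD4 effector level by less than 1.5-fold, with intervals that excluded 0 in both tissues. These were Lef1 (-0.35 and -0.32), Ccr7 (-0.39 and -0.20), Satb1 (-0.16 and -0.36) and Bach2 (-0.09 and -0.32). In the cecum, S1pr1 (0.04, -0.17 to 0.25) and Klf2 (-0.03, -0.16 to 0.09) did not differ beyond counting error. In the tumor, PD1+ CD4 decided the direction of both, a comparison added after the values were seen. With it, the S1pr1 ratio was 0.11 (-0.07 to 0.29) and the Klf2 ratio 0.24 (0.12 to 0.36), and without it they were -0.29 (-0.48 to -0.10) and -0.18 (-0.31 to -0.05). Tcf7 kept its direction without PD1+ CD4, at -0.87 and -0.85. Tcf7 was the 1 of the 7 genes at least 1.5-fold lower in each tissue, where 5.7% and 4.99% of all genes were. Without cells above 3 medians, the cecum Tcf7 ratios to CCR7+ CD4 moved from -1.33 to -1.64 in IL-10+ Treg and from -1.28 to -1.54 in IL-10- Treg. The Treg labels themselves differed at Bach2, which was higher in IL-10+ than IL-10- Treg, by 0.42 (0.32 to 0.51) and 0.31 (0.21 to 0.40). At S1pr1 IL-10+ Treg had a log2 ratio to IL-10- Treg of -0.53 (-0.84 to -0.23) in the cecum, while the tumor ratio was -0.05 (-0.36 to 0.26).

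Innate-like and gdT labels had 24 of 28 pairs lower in the cecum (8.15%) and 20 of 28 in the tumor (4.86%). Innate-like T#1 had 6 (5.09%) and 5 (3.22%) genes lower, Innate-like T#2 had 4 (7.32%) and 2 (3.16%), Cytotoxic gdT had 7 (8.26%) and 7 (4.98%), and Rorgt gdT had 7 (11.9%) and 6 (8.13%). The 2 genes lower in Innate-like T#2 of the tumor were Ccr7 and Lef1. Set against CCR7+ CD4 instead, Innate-like T#2 had 3 (9.21%) and 3 (5.27%) genes lower. Its median over the 7 genes was 74.1% and 77.2% of CCR7+ CD4, and 66.0% and 72.1% of CCR7+ CD8. Set directly against Innate-like T#1, Innate-like T#2 had 1 gene at least 1.5-fold higher (2.21% of all genes) and then 3 (2.56%). The gene in both was Klf2, with log2 ratios of 0.76 (0.49 to 1.02) and 0.93 (0.75 to 1.10), and the tumor genes also held S1pr1 (0.83, 0.59 to 1.07) and Ccr7 (0.68, 0.46 to 0.90). Satb1 was higher by less than 1.5-fold, with 0.54 and 0.58. Tcf7 did not differ between them beyond counting error, with log2 ratios of -0.0033 and -0.08. Rorgt gdT had 1 gene at least 1.5-fold above Cytotoxic gdT (8.14%) and then 3 (7.78%). The gene in both was Satb1, with log2 ratios of 0.96 (0.72 to 1.21) and 1.13 (0.91 to 1.35), and the tumor genes also held Ccr7 (0.96) and S1pr1 (0.61), while S1pr1 had -0.52 (-1.02 to -0.04) in the cecum.

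The difference did not lie in the same part of each locus. Windows were split into the stretch within 1 kb of a listed start or of the 5′ end of the span (of either gene end for Ccr7 and S1pr1, which have no listed start here), the rest of the span and the flanks, and labels were pooled by group against the pooled CCR7+ labels. At Lef1 the CD4 effector labels had cecum log2 ratios of -0.43 near starts and -1.38 in the rest of the span, and tumor ratios of -0.26 and -1.47. Satb1 was alike, with -1.22 and -2.29 (cecum) and -0.85 and -1.67 (tumor). At S1pr1 the order was the reverse, with -1.49 near the gene ends and -0.37 (-0.81 to 0.08) in the rest of the cecum span, and -0.86 and -0.58 for the tumor, PD1+ CD4 included. In CCR7+ cells, Klf2 had 62.3 and 59.3 FPM per kb near its start, against 10.7 and 7.38 in the rest of its span. The Bach2 flanks went the other way, with ratios of 0.66 (0.31 to 1.02) and 0.40 (0.0050 to 0.82) in Treg labels.

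**Figure D3:**
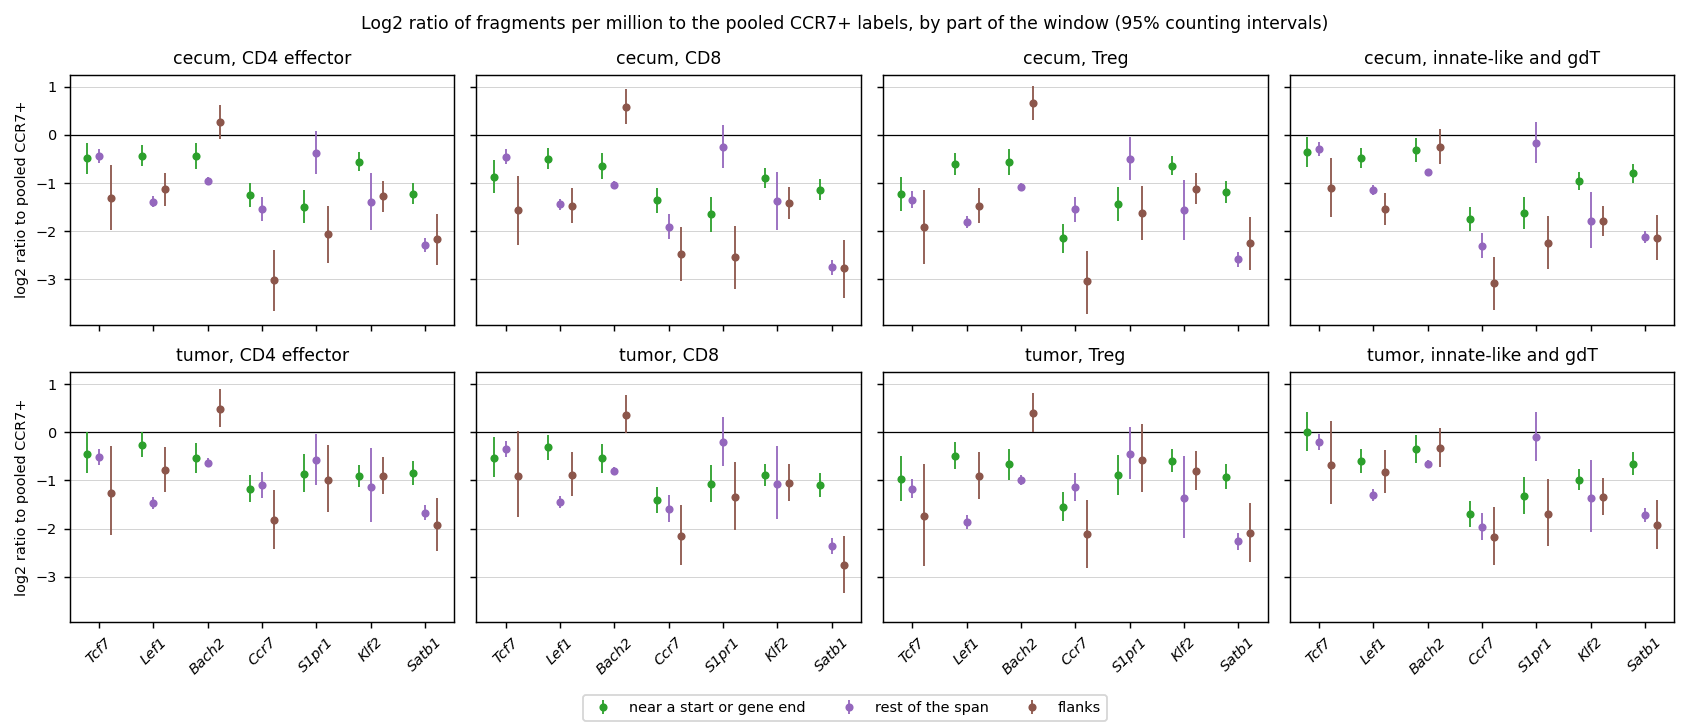
Log2 ratio of FPM of 4 groups of labels (columns) to the pooled CCR7+ labels, for the 7 genes in the cecum (top) and tumor (bottom), by part of the window; bars are 95% counting intervals and the line at 0 marks no difference. Lef1 and Satb1 are lower in the rest of the span than near a start, and the Bach2 flanks lie above 0 in the CD4 effector, CD8 and Treg panels, with intervals that include 0 for CD4 effector in the cecum and CD8 in the tumor.

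The printed starts were unequal too. Satb1 start 3 held 11.4 and 10.5 FPM in the CCR7+ labels, from 28 and 17 fragments. CD8 labels held 1.42 and 0.611 FPM there, from 13 and 10 fragments, log2 ratios of -3.00 and -4.10. At Satb1 start 2, CD8 labels held 10.2 and 9.84 FPM against 19.9 and 17.9 in CCR7+ labels, ratios of -0.97 and -0.87. Satb1 was thus nearer to the CCR7+ level at start 2 than at start 3. Lef1 start 1 held 10.6 and 12.4 FPM in the CCR7+ labels, and CD4 effector labels had ratios of -1.31 and -1.39. At Lef1 start 3 these ratios were -0.69 (-1.35 to 0.003) and -0.23 (-0.97 to 0.59). The Klf2 start held 79.2 and 93.3 FPM in CCR7+ cells, and 64.2 and 62.1 FPM in Treg cells.

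Within the loci, 500-base tiles with at least 20 CCR7+ fragments in the cecum were ranked there by the ratio of the pooled CD4 effector and CD8 labels to CCR7+, and the lowest tile of each gene was read in the tumor. The Lef1 tile chr3:131190501-131191000, in the span, had 24 CCR7+ fragments in the cecum (9.74 FPM) and 7 in the pooled effector labels (0.378 FPM), a log2 ratio of -4.69 (-6.15 to -3.43). In the tumor, which did not choose it, it had 22 (13.6 FPM) and 8 (0.265 FPM), a ratio of -5.68 (-7.06 to -4.46). Treg cells had 3 cecum and 0 tumor fragments there. With a floor of 3 counts in place of 0 the tumor ratio was -5.27, a substituted value and not a bound. The largest Lef1 tile, chr3:131208501-131209000, held 45.1 FPM in CCR7+ and 41.6 FPM in the pooled effector labels of the cecum, and 36.5 against 35.7 FPM in the tumor. At that tile, the 1 group of labels whose interval left out 0 was Treg in the cecum, at -0.34 (-0.66 to -0.01). Different stretches of Lef1 thus ranged from near the CCR7+ level to a small share of it.

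The tiles chosen the same way at the other genes had ratios below 0 in the tumor as well. At Bach2, chr4:32393001-32393500 had ratios of -3.91 and -3.16, and at Ccr7, chr11:99142001-99142500, which lies beyond the span, -4.11 and -3.28. At S1pr1, chr3:115716001-115716500 had -2.75 and -1.49, and at Tcf7, chr11:52284001-52284500 had -1.69 and -1.25. The tumor intervals of these excluded 0. The Satb1 tile chr17:51751001-51751500 had -3.79 and -2.29, and the Klf2 tile chr8:72323501-72324000 had -2.98 and -1.15 (-2.49 to 0.55), each with 5 CCR7+ fragments in the tumor. These tiles were chosen as extremes, and tiles entered only through their CCR7+ fragments, so they do not stand for the whole loci. Of 20 Bach2 tiles with at least 20 CCR7+ fragments in both libraries, 8 were at least 1.5-fold lower in the pooled effector labels of both and 3 at least 1.5-fold higher. Of 15 such Lef1 tiles, 7 were lower and 0 higher, and each other gene had 2 to 4 such tiles. Entry by CCR7+ fragments favours tiles that are lower in other labels. No share over all tiles was counted, so these counts only describe the loci.

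**Figure D4:**
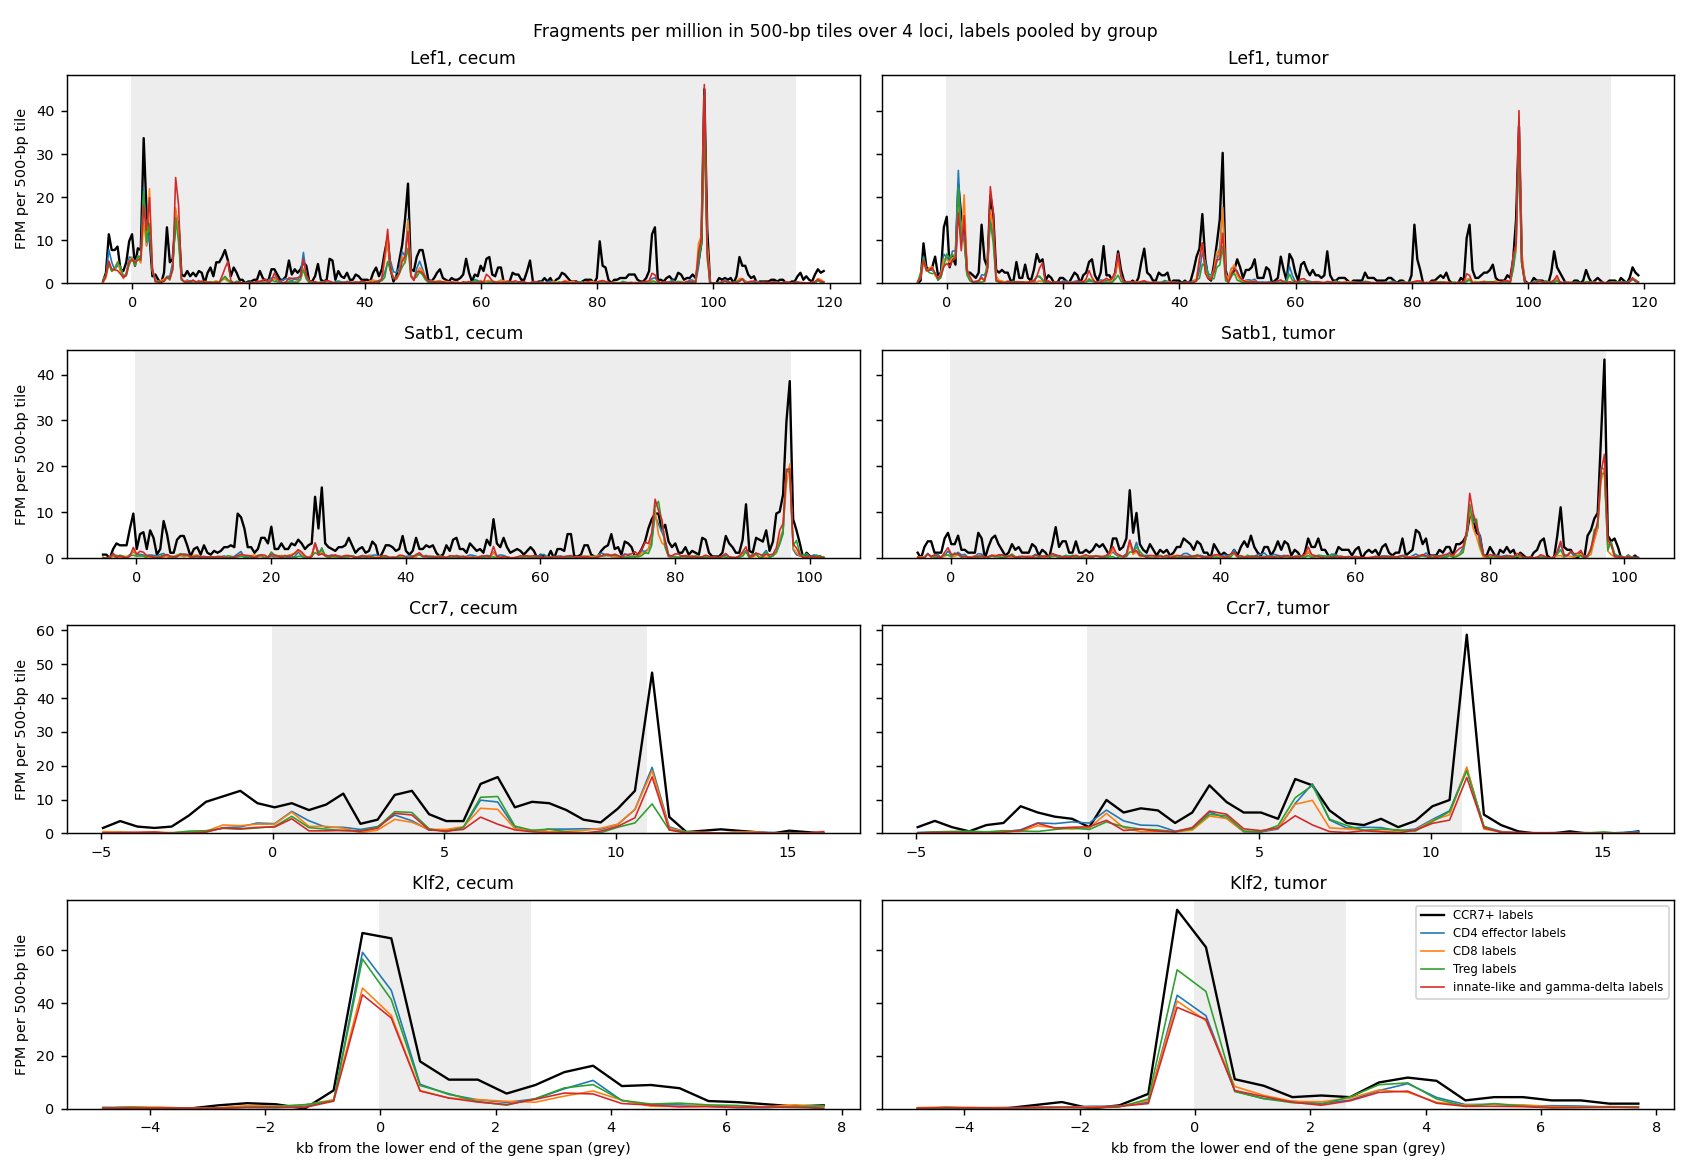
FPM in 500-base tiles across 4 loci (rows) against distance in kb from the lower end of the gene span (grey), in the cecum (left) and tumor (right), lines being pooled groups of labels. Lef1 shows tall peaks of like height in the groups beside smaller peaks where the CCR7+ line (black) stands above the others, and at Ccr7 and Klf2 the CCR7+ line is mostly the highest.

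Counted per cell, CCR7+ cells were apart from the other labels as well. With each cell thinned to 2000 fragments, so that cells of equal depth were compared, a CCR7+ CD4 cell had a mean of 5.74 fragments over the 7 windows in the cecum (99 cells) and 5.16 in the tumor (113 cells). A CCR7+ CD8 cell had 5.49 and 5.14. In the CCR7+ labels 0% to 2.42% of thinned cells had no fragment in the windows, a range that Innate-like T#2 of the cecum shared (0.82%), and other labels with at least 50 cells had 4.73% to 19.1%. Other labels with at least 50 cells ran from 1.90 to 3.58 (cecum) and from 1.92 to 3.47 (tumor), Innate-like T#2 being highest in both. The variance over the mean, which is 1 for counting alone, ran from 0.945 to 1.35 over the other labels and from 0.961 to 1.59 over the CCR7+ labels, CCR7+ CD8 of the tumor being highest. Unthinned, the CCR7+ CD4 means were 26.6 and 12.0 fragments.

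**Figure D5:**
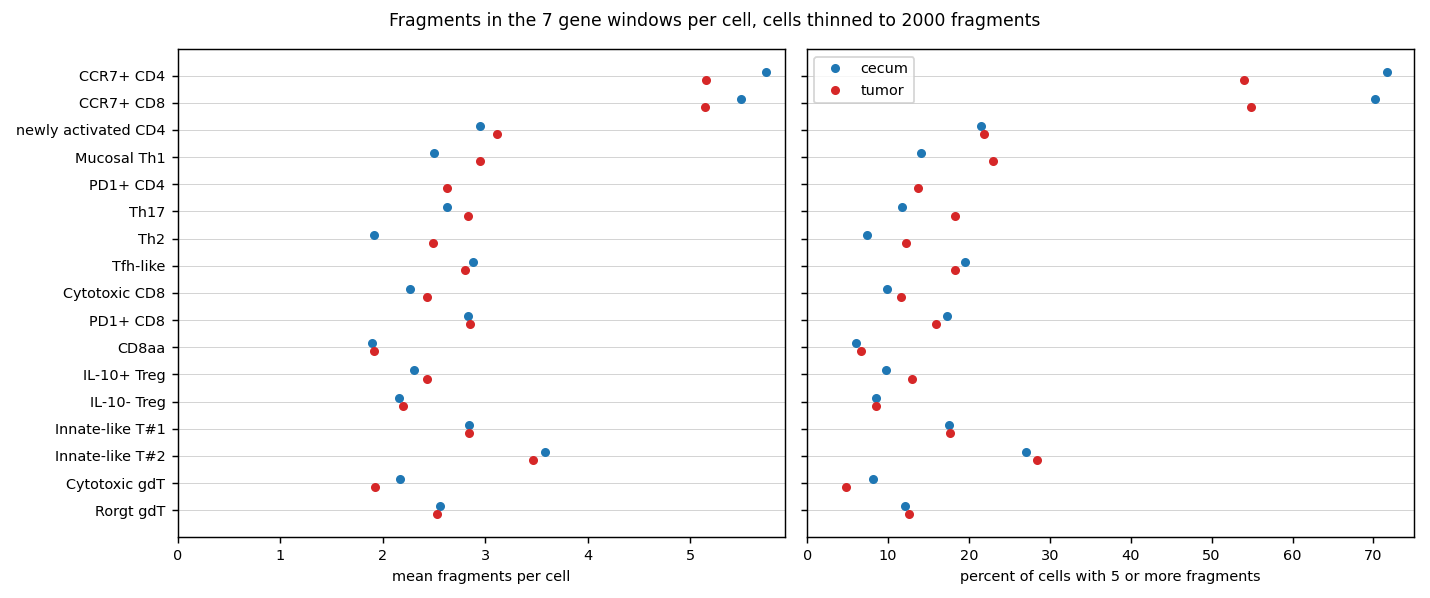
Mean fragments per cell over the 7 gene windows (left) and percent of cells with 5 or more (right), for cells thinned to 2000 fragments, by label and library. CCR7+ cells stand apart, with 54.0% to 71.7% of cells at 5 or more, and the highest other label is Innate-like T#2 with 27.1% and 28.5%.

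Between tissues the levels of a label were similar. Tumor over cecum, 0 of 112 gene-label pairs were at least 1.5-fold lower (1.68% of all pairs) and 3 were at least 1.5-fold higher (2.7%). The 3 of 112 lie near the share of all pairs, so they do not set the 7 genes apart. Ccr7 in newly activated CD4 had 102.1 against 63.3 FPM, a log2 ratio of 0.69 (0.12 to 1.32), from 27 cecum fragments. S1pr1 in Tfh-like had 60.6 against 36.6 FPM, 0.73 (0.10 to 1.33). S1pr1 in Rorgt gdT had 45.2 against 25.0 FPM, 0.85 (0.36 to 1.36). In CCR7+ CD8 the log2 ratio of tumor to cecum was below 0 for 7 of 7 genes, by less than 1.5-fold. Its median was -0.21 over the 7 and -0.0053 over all genes tested. The intervals lay below 0 for Bach2 (-0.21) and Satb1 (-0.38). Without cells above 3 medians the Bach2 ratio was -0.05, and the Lef1 ratio of CCR7+ CD8 went from -0.09 to 0.13. The same change moved S1pr1 in Th17 from -0.05 to 0.60.

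Related genes gave a wider view. The counts of labels by gene in this paragraph applied no minimum of fragments, unlike the share over all pairs. In single labels, 11 to 15 of the 15 naive and quiescence genes reached the minimum of 20. Of these 15, Dapl1 was lower in 14 of 14 cecum and 15 of 15 tumor labels, from few fragments. The median other label had 3.70 and 2.28 FPM of Dapl1. Nsg2 was lower in 12 and 13 labels, and Foxp1, a factor of T cell quiescence, in 12 and 11. Foxo1, a known activator of Klf2, and Ets1 were lower in 0 labels. Actn1 was lower in 11 and 11, Myb in 11 and 9, Igfbp4 in 11 and 7, Rflnb in 8 and 5, Klf3 in 5 and 8, Il7r in 5 and 3, Zeb1 in 4 and 3, Id3 in 1 and 7 and S1pr4 in 0 and 4 labels. The median log2 ratio over the 15 genes ran from -1.04 to -0.18 among labels, and that over all genes tested from -0.12 to 0.05. Of 9 tissue retention genes found, Bhlhe40 was at least 1.5-fold higher in 14 of 14 cecum and 10 of 15 tumor labels, Rgs1 in 12 and 10, Itga1 in 7 and 8, Itgae, the integrin that binds epithelial E-cadherin, in 8 and 6 and Cxcr6 in 6 and 3 (7.89% of all gene-label pairs were). The other genes of the list were seldom higher, Cd69 in 1 and 1, Hic1 in 1 and 0 and Runx3 in 0 and 0 labels, and Cd69 and Runx3 were each lower in 1 cecum label. Prdm1, which encodes the effector regulator BLIMP-1, was so in 0 labels, with 114.4 to 228.7 FPM against 159.9 to 190.4 FPM in the CCR7+ labels.

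Across labels the members moved together. Pearson's r of log2 FPM between pairs of the 7 genes had a median of 0.78 over 16 cecum and 0.71 over 17 tumor labels, with 0 of 21 pairs below 0. The lowest r was 0.40 for Tcf7 with Klf2 in the cecum and 0.38 for Tcf7 with Ccr7 in the tumor. Among 14259 genes, the mean of the 7 was most like Slc30a7 (0.95 and 0.92), and then Lyzl4, Spsb4, Flt3 and Gm50595 were the most like. Slc30a7, a zinc transporter gene at chr3:115938973-116007414, is a near neighbour of S1pr1, which ends at chr3:115715055. Genes were left out here only where their window overlapped that of a member. Singly, Tcf7 was most like Scml4, Lef1 and Bach2 most like Abcg1, Ccr7 most like Slc6a19, S1pr1 most like Slc30a7, Klf2 most like Dnaaf4 and Satb1 most like Flt3. The labels of a library share that library, and the CCR7+ labels are far from the rest, so these values only describe the pattern.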

How the data were processed

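Per the labels, T cells of 2 tissues were profiled with a 10x multiome assay. Per the submitters' processing notes, the authors used Cell Ranger ARC 2.0.0 and mm10, the same build as GRCm38. Each deposited line is a unique fragment with its barcode and a count of read pairs, not normalized. The authors clustered the RNA and carried labels to the ATAC data. RNA counts were not analysed here.

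Each fragment of an autosome or sex chromosome counted once, not by its read pairs (4.29 per fragment in the cecum, 3.11 in the tumor). Longer spans collect more fragments, so levels of different genes are compared only per kb. A gene entered the share of all genes where the pooled rate gave at least 20 fragments in the smaller label, and a label where it had at least 50 cells. Levels have exact Poisson and ratios exact conditional binomial intervals, and a count of 0 in a ratio was replaced by a floor of 3. Gene spans and promoters came from RefSeq tables of GRCm38.p6, with 17492 genes having listed starts. Doublets were not called. The genes, lists and label pairs were chosen with earlier results of these data known. The genes named were the 7 members, 2 related lists, marker lists and, for each member, the gene with the highest smaller r over both libraries. Alternatives were other windows, folds, minimums, scalings, references and sets of cells. The counter and ratios were tested on simulated data. Python 3.11.15 ran scipy 1.17.1, numba 0.67.0, matplotlib 3.10.9, pandas 2.3.3 and numpy 2.4.6.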

Additional observations from a re-analysis of the deposited data

Results flagged for a closer look

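Tcf7 in Innate-like T#1 was the 1 of 98 gene-label pairs whose log2 ratio to the CCR7+ label had opposite signs in the tissues, -0.23 in the cecum and 0.00047 in the tumor. The difference between tissues was not tested, and the tumor interval included 0.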

How the results depend on the processing

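Counts of gene-label pairs lower than the CCR7+ label stayed within 1.5 times their value under 9 of 11 alternatives. With 1 kb around starts or gene ends, they were 19 (cecum) and 20 (tumor) for CD4 effector, 8 for tumor Treg and 13 for tumor innate-like and gdT labels. At 2-fold they were 17 and 21 for CD4 effector and 9 for tumor Treg labels. Of 203 single ratios, 14 changed sign under some alternative, 11 of them less than 1.5-fold from the CCR7+ label as reported, the largest being Tcf7 in Mucosal Th1 (1.05), Tfh-like (0.72) and newly activated CD4 (0.67) of the tumor with the window around starts. The 3 past 1.5-fold were Tcf7 in Th17 (0.41) and Th2 (0.41) of the tumor with the window around starts, and S1pr1 in CD8aa of the tumor with no flank (0.012). The cause was not tested. Of the 203, the window around starts moved 121 beyond their counting interval and reversed 2 more that were past 1.5-fold. No flank moved 28 and reversed 1 more. The other CCR7+ reference moved 38, the mean over cells 35 and leaving out cells above 3 medians 15. Scaling by fragments near gene ends moved 4 and the wider flank 2. No paired analysis was possible because each tissue had 1 library, and leaving out a library was not possible for the same reason. CCR7+ labels have 729919 to 1270162 fragments, which limits single tiles most.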
